A study of Mus musculus with 6 samples.

Results

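Small nucleolar RNA genes were followed in differentiating mouse embryoid bodies (EBs) on 6 microarrays. The group held every gene whose symbol begins with Snord, Snora or Scarna and that had a probe set carrying 1 symbol, with the brightest such probe set used per gene. This gave 54 genes of 19938 on the array, namely 31 Snord genes (C/D box), 20 Snora genes (H/ACA box) and 3 Scarna genes. EBs are floating cell aggregates, here made from R1 mouse embryonic stem cells, an established line, plated at 35000 cells per ml without leukaemia inhibitory factor. Retinoic acid (RA), a derivative of vitamin A that drives differentiation, was added at 2 μM to EBs that were 4 days old. Day 0 EBs were taken before RA was added, and the EBs called day 3 and day 4 had then spent 3 or 4 days in RA. Each day has 2 arrays of total RNA from whole EBs. Since no EBs kept without RA for as long were analysed here, an effect of RA and one of culture time cannot be told apart.

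Small nucleolar RNAs are short non-coding RNAs that pair with other RNAs and direct their chemical modification. C/D box RNAs guide 2′-O-methylation by fibrillarin, H/ACA box RNAs guide the conversion of uridine to pseudouridine by dyskerin, and most targets of both lie in ribosomal RNA. Scarna RNAs are the related guides of Cajal bodies and act on spliceosomal RNAs. A few members, among them Snord118 (U8), Snord14 (U14), Snord22 (U22) and Snora73 (U17), are needed for the cutting of the ribosomal RNA precursor. In mammals most of these RNAs are cut out of introns of host genes, many of which encode ribosomal proteins or translation factors, so that a small nucleolar RNA is transcribed from its host's promoter.

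By position in the RefSeq gene table (assembly GRCm38.p6), 53 of the 54 genes lay inside another gene, 38 in a protein-coding gene and 15 in a non-coding RNA gene. The exception was Snord118, which is transcribed from a promoter of its own. A ribosomal protein gene held 21 of the 54. The RefSeq lengths were 45 to 148 bases for Snord genes (median 68), 61 to 205 for Snora genes (median 125) and 62 to 275 for Scarna genes (median 118). Many host promoters of this kind start transcription at a C inside a run of pyrimidines. The stretch from 70 bases before to 10 bases after the RefSeq start is shown for 7 hosts. They are the hosts of the 10 members with the largest falls at day 4 that the RefSeq promoter table holds. Members in introns of these hosts would be transcribed from that start. However, hosts were taken by span without regard to strand, and no start was measured here. The hosts Hspa8 (Snord14e) and Rpl23a (Snord42b) are named only. The letters CTTTC are in capitals where they occur on the strand shown, as is the reverse complement GAAAG.
Rpl4 (host of Snord16a, chr9:64173317-64173396, plus strand): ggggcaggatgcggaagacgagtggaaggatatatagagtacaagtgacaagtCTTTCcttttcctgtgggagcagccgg
Rack1 (host of Snord95 and Snord96a, chr11:48800290-48800369, plus strand): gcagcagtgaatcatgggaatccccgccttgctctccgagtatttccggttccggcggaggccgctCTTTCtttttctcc
Ipo7 (host of Snora23, chr7:110018245-110018324, plus strand): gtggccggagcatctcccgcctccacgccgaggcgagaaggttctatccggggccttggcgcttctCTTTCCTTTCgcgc
Ncl (host of Snora75 and Snord82, chr1:86359446-86359525, minus strand): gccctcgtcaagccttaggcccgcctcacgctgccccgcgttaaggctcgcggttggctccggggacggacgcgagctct
Eef2 (host of Snord37, chr10:81176561-81176640, plus strand): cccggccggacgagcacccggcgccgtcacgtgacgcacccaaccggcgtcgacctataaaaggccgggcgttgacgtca
Rpl39 (host of Snora69, chrX:37085213-37085292, minus strand): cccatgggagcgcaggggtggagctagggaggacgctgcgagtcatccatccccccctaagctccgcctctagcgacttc
Rps12 (host of Snora33, chr10:23787200-23787279, minus strand): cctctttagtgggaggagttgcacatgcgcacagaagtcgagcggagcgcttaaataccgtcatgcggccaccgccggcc
CTTTC or GAAAG stood within 20 bases of the start in 9 of the 32 hosts with a RefSeq promoter sequence (28.1%), in 5 of the 11 ribosomal protein hosts among these (45.5%) and in 2683 of all 27025 genes of the promoter table (9.93%). Of the 7 shown, 3 held it there (Rpl4, Rack1 and Ipo7) and 4 did not (Ncl, Eef2, Rpl39 and Rps12), and the letters were chosen after the values below were known.

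The values are log2 intensities, normalised by the authors with the Robust Multichip Average (RMA), so a difference of 1 is a change of 2-fold. Over all probe sets, the medians of the arrays ran from 6.69 to 6.85, arrays of the same day correlated at 0.999 or above, and day 0 correlated with the later days at 0.953 to 0.959. The pluripotency genes Pou5f1, Nanog, Sox2, Zfp42 and Esrrb fell at both later days (5 of 5), and the mean intensity of these 5 went from 8.36 to 8.43 on the day 0 arrays to 6.34 to 6.53 on the day 4 arrays. Zfp42, a defining marker of undifferentiated ES cells, was dim already at day 0 (5.86). Of the primitive red cell markers, all 3 globin genes (Hbb-bh1, Hbb-y, Hba-x) rose at both days, and their mean was 7.58 to 7.66 at day 0, 12.63 to 12.80 at day 3 and 10.66 to 10.88 at day 4. The part of these changes of cell type in the results below was not tested. In RNA from whole EBs, fewer cells of a type and less RNA per cell cannot be told apart.

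Small nucleolar RNA genes were lower after RA. At day 4, 37 of the 54 fell against day 0 and 17 did not pass the test (limma, Benjamini-Hochberg adjusted p of 0.05 or below over all 19938 genes). None of the 54 passed as higher, with 0 also at an unadjusted p below 0.05 in the same limma fit, although 2 (Snord57 and Snord82, 0.12 and 0.15) did so with trended and robust moderation. Of all genes tested, 25.6% fell and 25.9% rose in this comparison. The median log2 change of the 54 was -0.50, within a range of -1.90 to 0.15, beside a median of 0.00 over all genes tested. For 41 of the 54, both arrays of one day lay beyond both of the other. The share of all genes separated in this way was not computed, so this count has no background beside it. The fall was at least 2-fold for 13 members, which were 7 Snord and 6 Snora genes, while 4.61% of all genes fell by as much. No filter on dim signal was applied. With a mean below 6, 6 members were dim, and 2 of them (Snord73a and Snord58b) met the study's limits for undetectable genes, so their falls of 0.49 and 0.37 rest on dim signal.

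**Figure D1:**
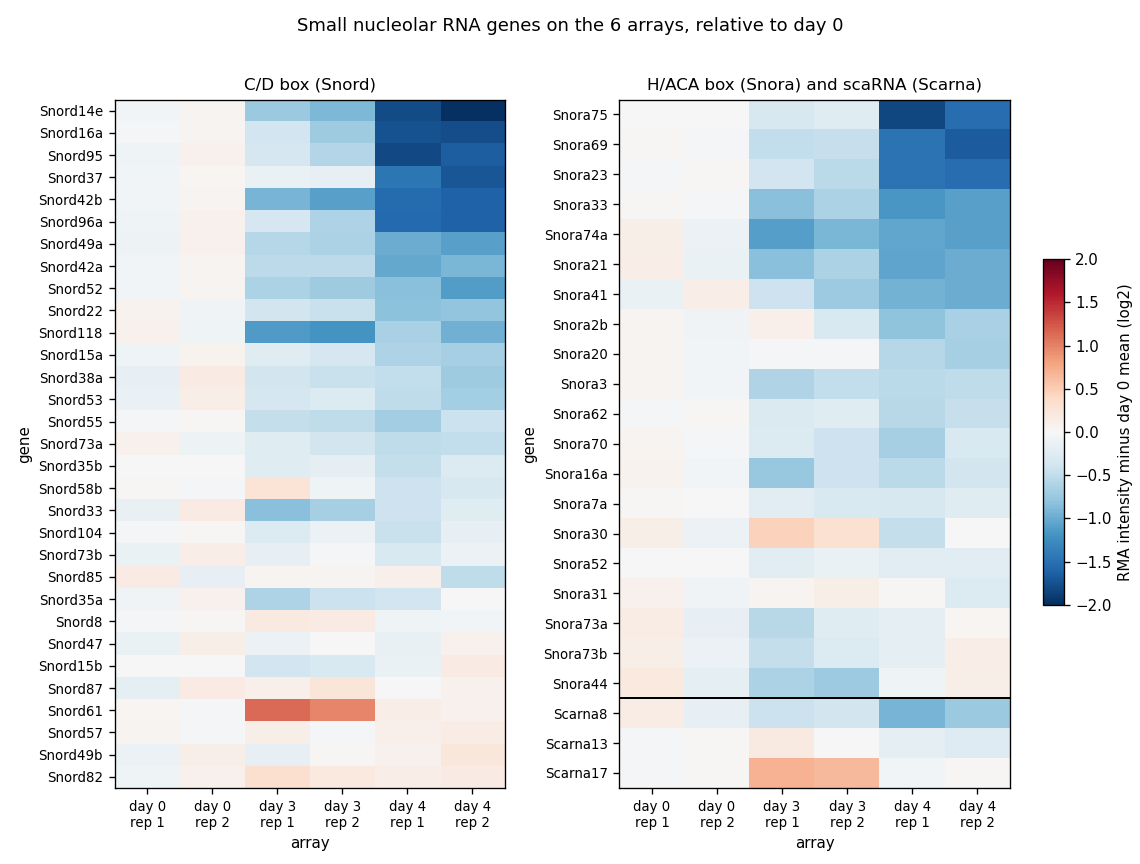
Heat maps of the 54 genes (rows) on the 6 arrays (columns), with C/D box genes on the left and H/ACA box genes above the line on the right over the 3 Scarna genes. Colour gives the log2 RMA intensity minus the gene's day 0 mean, and rows run from the largest fall at day 4 (Snord14e, -1.90) to Snord82 (0.15) on the left.

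The C/D box and H/ACA box classes moved by similar amounts. At day 4, 20 of 31 Snord genes fell with a class median of -0.49, and 15 of 20 Snora genes fell with a class median of -0.52. The median of the Snord genes relative to their day 0 means was -0.32 and -0.34 on the day 3 arrays, then -0.50 and -0.49 on the day 4 arrays. For the Snora genes it was -0.40 and -0.36 at day 3, then -0.56 and -0.49 at day 4. At both days the gap between the classes was no larger than the gap between the 2 day 0 arrays of the Snora genes, which stood at 0.06 and -0.06. No test was made between the classes, since genes of a class are not replicates of a day. Of the 3 Scarna genes, Scarna8 (-0.84) and Scarna13 (-0.22) fell at day 4, and Scarna17 (-0.01) did not pass. Scarna8 measured 7.25 and 6.94 at day 0, 6.67 and 6.73 at day 3, then 6.17 and 6.35 at day 4, with no overlap between days. Spearman's rho of length and day 4 change across the 54 genes was -0.01, given as a description, since all values come from the same 6 arrays.

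**Figure D2:**
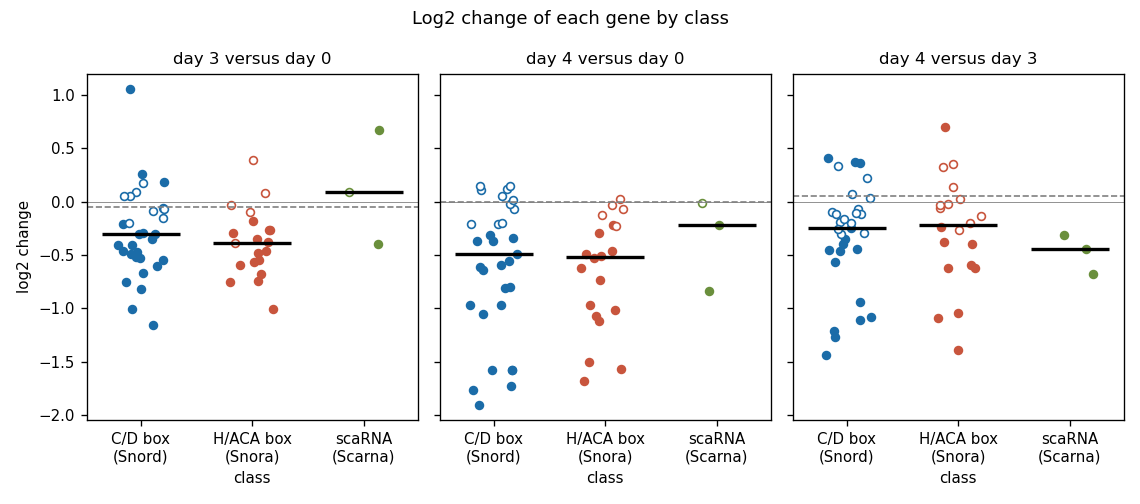
Log2 change of each gene by class in the 3 comparisons. Filled points passed the test and open points did not, black lines are class medians and the dashed line is the median over all genes tested. At day 4 the Snord and Snora medians were -0.49 and -0.52, and no point passed above 0.

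The largest falls at day 4 were those of the C/D box genes Snord14e, Snord16a and Snord95. Snord14e, a copy of U14 in the heat shock protein gene Hspa8, measured 10.12 and 10.22 at day 0, 9.43 and 9.27 at day 3, then 8.38 and 8.16 at day 4. The 3 days were fully separated, and the day 4 level was 3.74-fold below day 0 (log2 change -1.90 ± 0.09 SE, n = 2 arrays a day, limma adjusted p = 2.67e-06). Snord16a in Rpl4 measured 10.53 and 10.62, then 10.19 and 9.86, then 8.83 and 8.80, a 3.39-fold fall by day 4 (-1.76 ± 0.10). Snord95 and Snord96a share the host Rack1, whose promoter is shown above. Snord95 measured 9.77 and 9.93 at day 0, 9.52 and 9.26 at day 3, then 8.04 and 8.20 at day 4 (-1.73 ± 0.10). Its neighbour Snord96a measured 7.92 and 8.10, then 7.68 and 7.39, then 6.46 and 6.39 (-1.58 ± 0.10). For these 3 genes the drop from day 3 to day 4 was larger than that from day 0 to day 3, and no arrays of different days overlapped. Snord42b in Rpl23a followed a more even course, with 10.28 and 10.39 at day 0, 9.40 and 9.24 at day 3, then 8.79 and 8.71 at day 4 (-1.58 ± 0.08).

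Snord37, in the intron of the elongation factor gene Eef2, stood apart by its timing. It measured 7.41 and 7.50 at day 0 and 7.33 and 7.30 at day 3, a difference that did not pass the test (-0.15 ± 0.09, limma adjusted p = 0.215). At day 4 it measured 6.01 and 5.75, a 2.70-fold fall within 1 day (-1.44 ± 0.09, limma adjusted p = 0.000216). Both day 4 arrays thus lay far below the other 4.

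Among the H/ACA box genes, Snora75 showed a similar late fall. It lies in Ncl, the gene of nucleolin, and measured 7.49 on both day 0 arrays, 7.17 and 7.24 at day 3, then 5.67 and 5.96 at day 4 (-1.68 ± 0.09 against day 0, limma adjusted p = 5.38e-06). Snora69 in Rpl39 measured 9.67 and 9.61, then 9.15 and 9.18, then 8.16 and 7.98 (-1.57 ± 0.07). Snora23 in the importin gene Ipo7 measured 10.29 and 10.33, then 9.93 and 9.77, then 8.84 and 8.78 (-1.50 ± 0.07). The days did not overlap for any of the 3, and each fell more from day 3 to day 4 than before day 3. Snora33 in Rps12 fell earlier, from 7.65 and 7.60 at day 0 to 6.79 and 6.98 at day 3, then 6.46 and 6.54 at day 4 (-1.12 ± 0.08).

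The other 24 falls at day 4 were under 2-fold, from -0.97 to -0.22. The largest of them were those of Snord42a, the neighbour of Snord42b in Rpl23a, Snord52 in a non-coding gene and Snora41 in the elongation factor gene Eef1b2. Snord42a measured 8.65 and 8.77 at day 0, 8.19 and 8.18 at day 3, then 7.68 and 7.80 at day 4 (-0.97 ± 0.07). Snord52 measured 8.54 and 8.66, then 7.97 and 7.89, then 7.77 and 7.49 (-0.97 ± 0.10). Snora41 was dim, with 5.75 and 6.03, then 5.47 and 5.17, then 4.94 and 4.90 (-0.97 ± 0.12). The arrays of all 3 did not overlap between days, although the change of Snord52 from day 3 to day 4 (-0.30 ± 0.10) did not pass. Snora3 in Rpl27a had instead finished its fall by day 3, with 9.97 and 9.86 at day 0, 9.31 and 9.42 at day 3, then 9.37 and 9.40 at day 4 (-0.53 ± 0.06). Snord33 and Snord35a, neighbours in Rpl13a, were lowest at day 3 as well. Snord33 had a day 0 mean of 10.15 and measured 9.31 and 9.49 at day 3, then 9.73 and 9.90 at day 4, and its day 4 change of -0.34 ± 0.11 passed narrowly (limma adjusted p = 0.0416). Snord35a measured 10.84 and 10.99, then 10.29 and 10.48, then 10.52 and 10.92, and its day 4 change of -0.20 ± 0.14 did not pass.

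**Figure D3:**
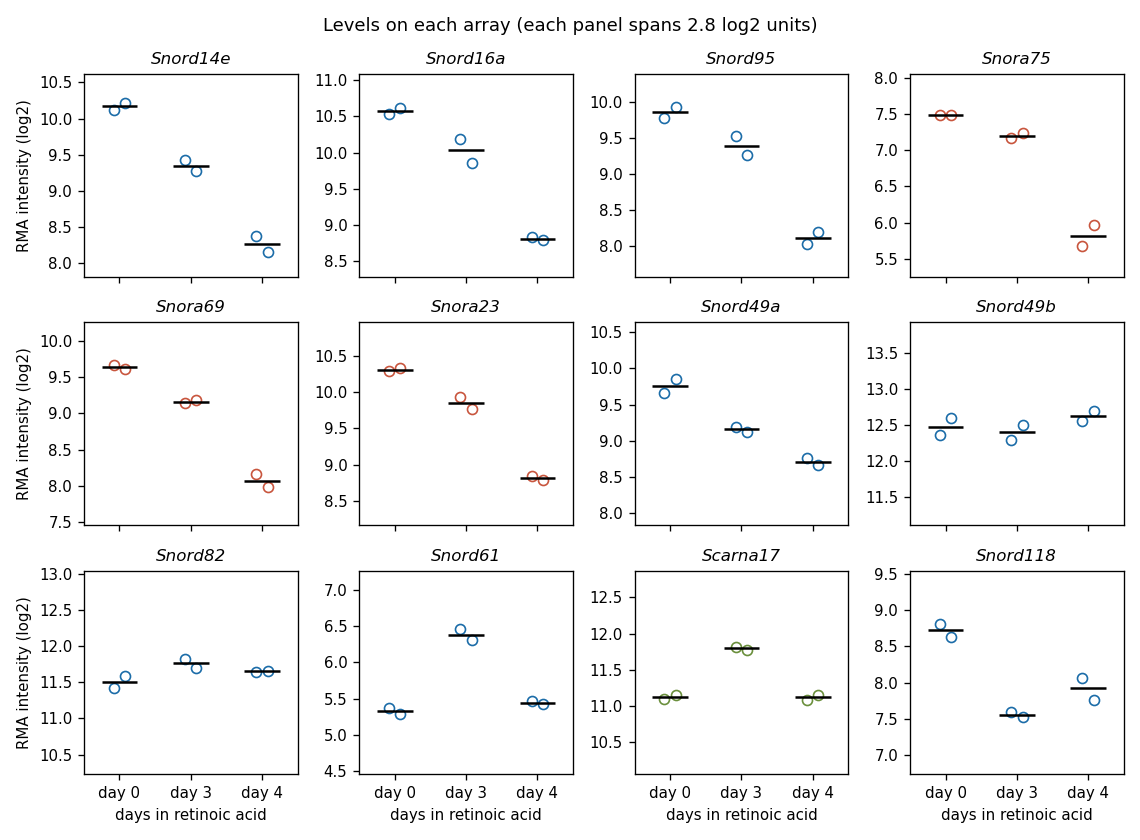
Log2 RMA intensity of 12 genes on each array (circles; bars are the means of the 2 arrays) against days in RA, with every panel spanning the same range of log2 units. Snord14e, Snord16a and Snord95 fell furthest of the Snord genes at day 4 and Snora75, Snora69 and Snora23 of the Snora genes, Snord49b and Snord82 changed by 0.15 each at day 4, Snord61 and Scarna17 were high at day 3 alone, and Snord118 was lowest at day 3.

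Guides needed for cutting the ribosomal RNA precursor did not all follow one course. Snord118 (U8) measured 8.81 and 8.63 at day 0, fell to 7.59 and 7.52 at day 3 and stood at 8.07 and 7.76 at day 4. It thus fell by 1.16 ± 0.11 to day 3 (limma adjusted p = 8.28e-05) and rose by 0.37 ± 0.11 from there to day 4 (limma adjusted p = 0.0447). A second Snord118 probe set held the same values, and copies of the gene cannot be told apart. Snord22 (U22), in the non-coding host Snhg1, measured 7.74 and 7.60, then 7.31 and 7.22, then 6.85 and 6.88, and fell by 0.81 ± 0.07 to day 4. Snora73a and Snora73b (both U17, in Snhg3) had day 4 changes of -0.07 ± 0.14 and -0.03 ± 0.13 that did not pass. At day 3, Snora73b fell by 0.38 ± 0.13 and Snora73a, at -0.39 ± 0.14, did not pass (limma adjusted p = 0.0398 and 0.0507). The call of Snora73b was lost without day 0 replicate 1 or day 3 replicate 1. Snora73a measured 10.78 and 10.47 at day 0 and 10.44 and 10.67 at day 4, so these days overlapped.

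At day 3, 35 of the 54 genes fell, 4 rose and 15 did not pass, against 28.1% lower and 23.8% higher among all genes. The median change was -0.35, beside -0.05 over all genes. By class, 19 of 31 Snord genes fell and 3 rose (median -0.30), and 15 of 20 Snora genes fell (median -0.39). The largest falls after Snord118 were those of Snora74a, in the non-coding host Snhg4 (-1.01 ± 0.09), Snord42b (-1.01 ± 0.08) and Snord14e (-0.82 ± 0.09). Snora74a measured 9.27 and 9.05 at day 0 and 8.06 and 8.24 at day 3, and stayed at 8.12 and 8.07 at day 4. Snora21 in Rpl23 likewise fell by 0.75 ± 0.10 to day 3, and its further change of -0.27 ± 0.10 to day 4 did not pass. Snora75, among the largest falls at day 4, had fallen by 0.29 ± 0.09 at day 3, a call that was lost without any 1 of the 4 arrays of days 0 and 3.

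The 4 genes that rose at day 3 were Snord61, Scarna17, Snord82 and Snord8. Snord61, in the gene of the RNA-binding protein Rbmx, measured 5.37 and 5.29 at day 0, 6.46 and 6.31 at day 3, then 5.47 and 5.42 at day 4. The rise to day 3 was 2.08-fold (1.05 ± 0.07, limma adjusted p = 1.19e-05), and most of it was gone by day 4 (-0.94 ± 0.07 against day 3). Scarna17 measured 11.10 and 11.16, then 11.82 and 11.78, then 11.08 and 11.16. It rose by 0.67 ± 0.06 to day 3 and fell by 0.68 ± 0.06 from day 3 to day 4, when it overlapped day 0 again. A second Scarna17 probe set was identical in value. The rises of Snord82 (0.26 ± 0.07) and Snord8 (0.18 ± 0.05) were small, and neither passed when the arrays were centred on the median over the genes tested or without day 0 replicate 1 or day 3 replicate 1.

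From day 3 to day 4, 25 genes fell, 4 rose and 25 did not pass, with a median change of -0.26 beside 0.05 over all genes. Of all genes, 12.2% fell and 15.8% rose. Of the Snord genes 13 fell and 3 rose, of the Snora genes 9 fell and 1 rose, and the 3 Scarna genes fell. This comparison leaned most on single arrays. Without day 3 replicate 1, 18 members were called in place of 29, 1 of them higher, while over all genes 6.80% were then higher and 6.89% lower. The 4 that rose, after falling at day 3, were Snora44 (0.70 ± 0.13), Snord33 (0.41 ± 0.11), Snord118 and Snord15b (0.36 ± 0.10). Snora44 in Snhg12 measured 10.20 and 9.80 at day 0, 9.37 and 9.28 at day 3, then 9.92 and 10.12 at day 4, so that days 0 and 4 overlapped. The rises of Snord33, Snord118 and Snord15b did not pass with the arrays centred on the median over the genes tested. With 1 array left out, Snord33 lost its call in 4 of 6 fits, Snord118 and Snord15b in 5 each, and Snora44 without day 4 replicate 2.

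Against day 0, 31 genes fell at both later days. Of these, 16 also fell from day 3 to day 4, 13 showed no change between them that passed, and Snord33 and Snord118 rose. All comparisons share arrays, so their counts are not independent of each other. A further 5 genes had no change at day 3 that passed and fell both against day 0 and against day 3 at day 4, namely Snord37, Snora2b (-0.73 ± 0.13 against day 0), Snora20 (-0.62 ± 0.07), Snord58b and Scarna13. Another 8 genes passed in none of the 3 comparisons. Matching shares over all genes were not computed, so these joint counts describe the members alone.

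The members that did not pass at day 4 included the 3 brightest Snord genes, Snord49b, Snord57 and Snord82. Snord49b measured 12.36 and 12.59 at day 0, 12.30 and 12.50 at day 3, then 12.56 and 12.69 at day 4, with a change of 0.15 ± 0.10 that did not pass. Snord57, in the gene of the C/D box protein Nop56, measured 12.34 and 12.25, then 12.41 and 12.27, then 12.39 and 12.44 (0.12 ± 0.07). The day 4 arrays of Snord49b overlapped those of day 0, and the day 4 arrays of Snord57 lay just above them. The brightest H/ACA box gene, Snora52 in Rplp2, fell slightly from 13.21 on both day 0 arrays to 12.98 and 13.00 at day 4 (-0.22 ± 0.05, limma adjusted p = 0.0129). The 7 members with a mean of 11 or more changed by -0.59 to 0.15 at day 4, and 3 of them fell. The median change of the brighter 27 members was -0.29 and that of the dimmer 27 was -0.64 (Spearman's rho of level and change 0.35 over the 54). Array intensities flatten near the top of the range, and the part of this in the difference was not tested.

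Neighbours in 1 host differed widely. Nucleolin's gene Ncl holds Snora75, which fell by 1.68 ± 0.09 at day 4, and Snord82, which measured 11.42 and 11.59 at day 0 and 11.64 and 11.66 at day 4 (0.15 ± 0.07, not passed). Ncl itself fell by 0.50 ± 0.06. Snord49a and Snord49b lie in the same non-coding gene, 2410006H16Rik. Snord49a measured 9.66 and 9.85 at day 0, 9.19 and 9.12 at day 3, then 8.76 and 8.67 at day 4, a log2 change of -1.05 ± 0.08, beside 0.15 ± 0.10 for Snord49b. In Rps3, Snord15a fell by 0.64 ± 0.07 and Snord15b was at 0.01 ± 0.10. Other neighbours both fell. Snord95 and Snord96a in Rack1 changed by -1.73 and -1.58, and Snord42a and Snord42b in Rpl23a by -0.97 and -1.58. The difference between neighbours was not tested.

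The falls were mostly larger than those read for the hosts. For 28 members (24 distinct hosts) a host was measured, on the brightest probe set carrying its symbol. Of the 28, 24 had a lower log2 change at day 4 than that probe set, with a median gap of -0.50 over the 28. Among these 24 were Snora30, Snora31, Snord73b, Snord15b and Snord61, whose own day 4 changes did not pass, and Scarna8, level with its host. For Hspa8 and most of the measured ribosomal protein hosts (Rpl10, Rpl23, Rpl23a, Rpl27a, Rps12, Rps3a1 and Rpsa), the probe set used had a number far from those of their members. Whether it reads the host's own locus or a copy elsewhere was not tested. In 12 cases the member fell and the host did not pass, and in 8 both fell. Hspa8, host of Snord14e, changed by -0.13 ± 0.05 (not passed), Eef2 by -0.10 ± 0.05 (not passed) and Rpl4 by -0.18 ± 0.05, which passed (limma adjusted p = 0.0241). The 10 measured ribosomal protein hosts ran from -0.26 to 0.03 with a median of -0.05, and only Rps12 and Rpl4 of them fell, whereas 11 of the 13 members inside them fell with a median of -0.53. The direction of these hosts depended on the scaling, with 0 called and a median of 0.06 when arrays were centred on all probe sets and 8 lower with a median of -0.20 when centred on the genes tested, but both scalings move a member and its host by the same amount. Some members followed their host. Scarna8 and its host Haus6, a subunit of the spindle augmin complex, both changed by -0.84, and Snord61 and Rbmx rose together at day 3 (1.05 and 1.27), although Rbmx was still up by 0.70 ± 0.11 at day 4 when Snord61 was back at 0.11 ± 0.07. Snora30 and Srcap stood at 0.39 and 0.41 at day 3, where only Srcap passed. The Snora30 probe set used had a number far from that of Srcap, and another with the same values had a number near it. Copies of Snora30 thus cannot be told apart. Snord53 fell by 0.59 ± 0.10 and its host Wdr43, a ribosome assembly factor, by 0.99 ± 0.06. Across the 28 pairs Spearman's rho of the day 4 changes was 0.24 and Pearson's r was 0.20, given as a description over pairs that share arrays and, in 4 hosts, the host. The hosts' median intensity was 12.37 and that of all 54 members 8.82. Hspa8, Eef2 and Rpl10 had day 0 means of 13.64, 13.60 and 13.66, in the range where array intensities flatten. Rplp2, host of Snora52, was read at a mean of only 6.66, near the dim limit of 6. The part of flattening and of dim signal in the gap between members and hosts was not tested. How far a probe set reads the mature small RNA and how far the host's unspliced transcript was not tested.

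**Figure D4:**
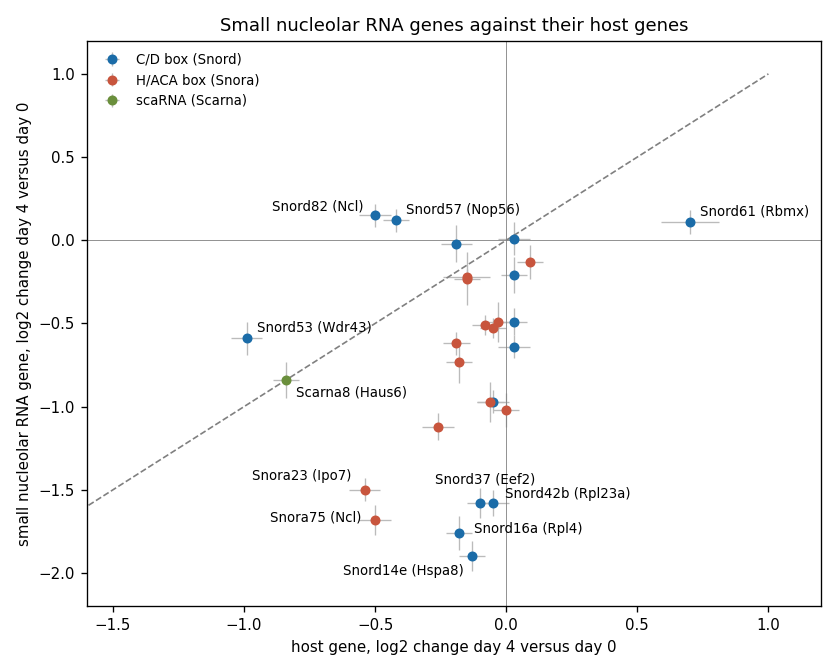
Log2 change at day 4 of 28 genes (vertical axis) against that of their host gene on its brightest probe set (horizontal axis). SE from the limma fit are grey bars, and the dashed line marks equal change. Of the 28 points 24 lie below the line, with Snord14e (Hspa8) at -1.90 against -0.13 and Scarna8 (Haus6) nearly on it.

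The RNAs that encode the proteins of the particles fell as well, while no protein was measured. All 4 C/D box core protein genes fell at day 4, namely the methyltransferase gene Fbl (-0.89 ± 0.08), Nop58 (-0.78 ± 0.05), Nop56 (-0.42 ± 0.05) and Snu13 (-0.36 ± 0.05). All 4 H/ACA box core protein genes fell too, with Nhp2 at -1.29 ± 0.06, Gar1 at -0.93 ± 0.05, the pseudouridine synthase gene Dkc1 at -0.91 ± 0.05 and Nop10 at -0.33 ± 0.05. Unlike many of the small nucleolar RNAs, these 8 transcripts had reached most of their change by day 3. Fbl was then at -0.85, Dkc1 at -0.81 and Nhp2 at -1.30. From day 3 to day 4 only Gar1 fell further (-0.18) and Nop10 rose (0.20). Of 21 genes of assembly and transport factors 16 fell at day 4 and 5 did not pass (median -0.50). The largest falls were those of the H/ACA assembly factor Shq1 (-1.35 ± 0.05), the U3 particle protein Rrp9 (-1.35 ± 0.06), the nucleolar phosphoprotein Nolc1 (-1.19 ± 0.05), the H/ACA assembly factor Naf1 (-1.05 ± 0.06) and the ribosomal RNA processing protein Utp15 (-0.92 ± 0.06). Coil, the scaffold of Cajal bodies (-0.02), Pih1d1 of the R2TP assembly complex (0.00) and Imp3 of the U3 particle (0.10) did not pass.

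Of a list of non-coding genes known as hosts of small nucleolar RNAs, 8 were measured and 7 fell at day 4 (median -0.58), or 5 with the arrays centred on all probe sets, where Gas5 and Meg3 did not pass. Of the 8, Gas5 alone holds one of the 54 members, Snord47, and changed by -0.19 ± 0.06. Snhg1, Snhg3, Snhg4, Snhg6, Snhg10, Snhg12 and the other non-coding hosts of the members had no probe set with 1 symbol and were not measured. Snhg5 fell by 1.15 ± 0.06, Dancr by 1.12 ± 0.14, Snhg11 by 0.78 ± 0.10 and Snhg17 by 0.61 ± 0.05, while Snhg15 (-0.23 ± 0.10) did not pass. Taf1d, a protein-coding host whose product is a factor of RNA polymerase I, fell by 1.27 ± 0.05. The imprinted hosts Meg3 and Rian rose at day 3 (0.64 and 0.35) and were below day 0 at day 4 (-0.35 and -0.55). The small RNAs of that cluster and of the Prader-Willi cluster (the families Snord113, Snord114, Snord115 and Snord116) had 0 genes with a probe set of 1 symbol and are not among the 54.

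A list of 13 other short non-coding RNA genes, microRNAs apart, mostly did not share the fall. Of these 13, 8 rose at day 4 (61.5%), 1 fell (7.69%) and 4 did not pass, with a median of 0.35. Among all genes tested, 25.9% rose and 25.6% fell. The Y RNA genes Rny3 and Rny1 rose by 0.63 ± 0.05 and 0.61 ± 0.05, Rmrp and Rpph1, the RNA parts of the MRP and P ribonucleases, by 0.49 ± 0.09 and 0.37 ± 0.08, the vault RNA gene Vaultrc5 by 0.45 ± 0.12, the 5S ribosomal RNA gene n-R5s136 by 0.42 ± 0.14 and the spliceosomal Rnu12 by 0.35 ± 0.07, while Rnu5g (0.32 ± 0.08) was dim, with a day 0 mean of 4.55. Centred on the genes tested, 5 rose and 3 fell (median 0.21). The gene that fell was Terc (-1.05 ± 0.07, limma adjusted p = 1.22e-05), the telomerase RNA, which is itself built as an H/ACA box RNA. Rnu3a, a U3 RNA gene of the C/D box type, was at 0.09 ± 0.10 and Rn7sk at 0.08 ± 0.05, and neither passed. Of 300 microRNA genes, 56 fell (18.7%), 18 rose (6.00%) and 226 did not pass. They thus leaned down slightly, with 213 below 0 and a median of -0.07, and 163 of them were undetectable. The RNA was purified on RNeasy Mini columns, which retain RNA of such short lengths poorly, and the part of column yield in the levels was not tested.

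**Figure D5:**
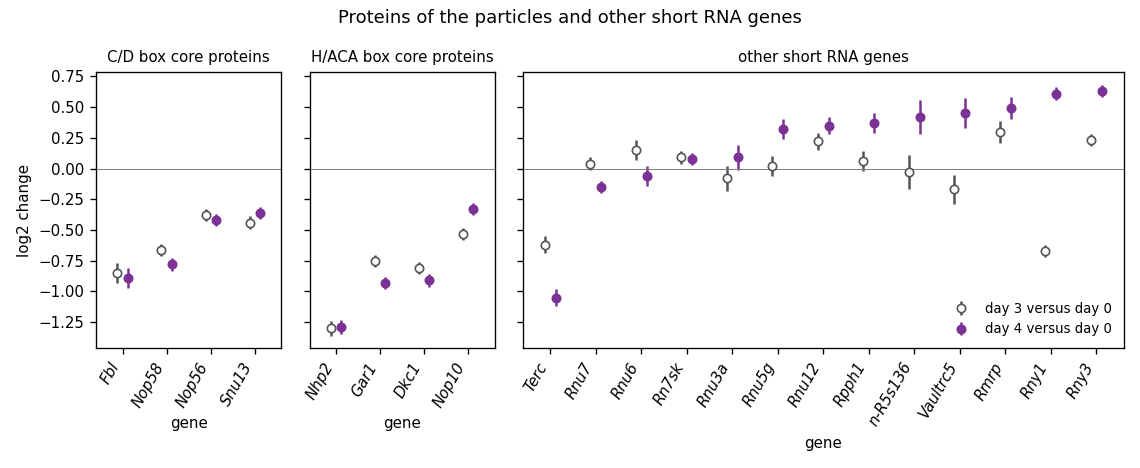
Log2 change in RNA level, with SE from the limma fit, of the genes of the particles' core proteins and of 13 other short RNA genes. Day 3 (open circles) and day 4 (filled circles) are each set against day 0. The 8 core protein genes lie below 0 at both days, and of the short RNA genes Terc alone fell at day 4 (-1.05) while 8 rose.

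Under other scalings the members were still mostly lower. Subtracting each array's median over all probe sets moved the median of all genes by 0.11 at day 4 and left 32 of the 54 lower and 3 higher, with 35.8% of all genes higher and 19.6% lower. Subtracting the median over the genes tested moved it by -0.15 and gave 40 lower and 0 higher, with 19.0% and 42.7% of all genes. The Snord median at day 4 was then -0.39 and -0.64, still below that of all genes. The study describes biological replicates of its day 0 and day 4 RNA, but the labels do not say whether the 2 arrays of each day come from separate cultures, so the spread behind the p-values is that between arrays and may be only technical.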

How the data were processed

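RNA of R1 mouse EBs was amplified and measured on Affymetrix arrays (Mouse Gene 1.0 ST), with 2 arrays for each of the 3 days. The authors deposited log2 intensities made with RMA (background correction, quantile normalization, probe summary) in Partek. The versions used for the arrays are not given in the sources used here, which state one for Partek in the sequencing part alone. The quantile step hides changes of total RNA per cell. Groups came from the sample titles.

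Of 35557 probe sets, 21789 carried 1 symbol in the platform annotation, giving 19938 genes. A member symbol stood on 101 probe sets, of which 60 had 1 symbol (54 genes) and 41 had several and were left out. The fit was limma 3.58.1 in R 4.3.3 (lmFit, eBayes without trend or robust moderation) on all 6 arrays with a mean per day, two-sided, Benjamini-Hochberg adjusted over all genes. It had 3 residual and 4.07 prior degrees of freedom and was tested on simulated data. SE are from that fit. Intensities have no depth, so the number of arrays limits precision. Undetectable means a mean below 6 and an SD below 0.3.

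Hosts were genes of the RefSeq table of assembly GRCm38.p6 whose span holds the member, without regard to strand, which that table does not give. Promoter sequences are those of RefSeq for the same build. Sequences of the members were not used here, so the planned search for the C box was not run, and the genes most similar to the members were not listed.

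Named genes were the 10 members with the largest change each way against day 0 (5 each way for day 4 versus day 3) that passed with separated arrays, the 3 brightest and 2 largest not passed per class, and the largest changes of the protein and host lists. The rule also named the families Snord118, Snord14, Snord22 and Snora73. Snora41, Snora3, Snora2b, Snora20, Snord42a, Snord53, Snord15a, Gas5 and the neighbours in shared hosts were named after their values were seen. Members and lists were chosen with earlier results of these data known. Alternatives were other scalings, a filter on dim genes, trended robust moderation, averaged probe sets, a replicate block, the 2 days alone and leaving out each array.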

Additional observations from a re-analysis of the deposited data

Results flagged for a closer look

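For 10 genes the change against day 0 passed at one of the later days and not at the other, or in a different direction, and the difference between day 4 and day 3 itself passed in the limma fit, with adjusted p of 0.05 or below. Lower at day 4 than at day 3 were Snord37 (-1.44), Snord61 (-0.94), Scarna17 (-0.68), Snora2b (-0.62), Snora20 (-0.59), Snord58b (-0.46), Scarna13 (-0.31) and Snord8 (-0.25). Higher at day 4 were Snora44 (0.70) and Snord15b (0.36). Values are log2 changes. The difference did not pass in some fits without 1 array for Scarna13, Snora2b, Snora44, Snord8, Snord15b and Snord58b. With 2 arrays a day, no array could be tested as standing apart from its day.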

How the results depend on the processing

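No member called in the main analysis was called in the opposite direction under any alternative run. The calls at day 4 that some alternative lost were those of Scarna13, Snora52, Snord104, Snord33, Snord58b, Snora16a and Snora70. With 1 array left out, 0 to 12 of the 39 calls at day 3 and 2 to 11 of the 29 from day 3 to day 4 were lost. At day 3 these were Scarna8, Snora52, Snora70, Snora73b, Snora75, Snord8, Snord15a, Snord15b, Snord35a, Snord35b, Snord38a, Snord53, Snord73a and Snord82, and from day 3 to day 4 Scarna8, Scarna13, Snora2b, Snora30, Snora33, Snora41, Snora44, Snora62, Snord8, Snord15a, Snord15b, Snord33, Snord58b and Snord118. With the arrays centred on all probe sets, the Snord median was -0.39 at day 4 and the medians from day 3 to day 4 were -0.12 (Snord) and -0.09 (Snora). Centred on the genes tested, an alternative chosen after seeing the data, the Snord medians were -0.64 at day 4, -0.40 at day 3 and -0.30 from day 3 to day 4, and the Snora medians -0.66 at day 4 and -0.49 at day 3. The cause was not tested. From day 3 to day 4, centring on all probe sets moved the median of all genes by 0.18, with 44.3% of them higher and 6.93% lower, and 9 members rose and 21 fell.

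Leaving out each array in turn, the Snora median at day 3 ran from -0.44 to -0.30, the Snord median from day 3 to day 4 from -0.30 to -0.21 and the Snord genes called there from 10 to 15. Some members that had not passed crossed 0 when 1 array was left out. At day 4 the ranges were -0.51 to 0.10 for Snord85, -0.23 to 0.08 for Snora73a, -0.48 to 0.01 for Snora30, -0.27 to 0.01 for Snora31 and -0.05 to 0.02 for Scarna17. At day 3 they were -0.19 to 0.05 for Snord49b, -0.02 to 0.11 for Snord57, 0.00 to 0.35 for Snord87 and 0.00 to 0.18 for Scarna13. From day 3 to day 4 they were -0.08 to 0.01 for Snora52 and -0.06 to 0.02 for Snora7a. With centring on all probe sets, values across 0 were Snora73a (0.03) and Scarna17 (0.09) at day 4 and Snord82 (0.02), Snora52 (0.10) and Snora7a (0.11) from day 3 to day 4. With centring on the genes tested, they were Snord57 (-0.02 at day 4 and -0.05 at day 3) and Scarna13 (-0.01 at day 3), and with cyclic loess Scarna17 (0.01 at day 4).

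Same-numbered arrays showed little shared deviation (correlations of 0.03 to 0.08), and the main fit did not pair them. For some members, among them Snord49b, Snord73b and Snord33, replicate 2 lay above replicate 1 on every day. For others, such as Snora73a, the order of the replicates changed between days. Whether the numbers mark arrays that belong together was not tested. With the replicate block, 38, 37 and 30 members were called in the day 4, day 3 and day 4 versus day 3 comparisons, in place of 37, 39 and 29.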

Other observations

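The 41 probe sets with several symbols, which were left out above, also ran low. A block of 24 that carry the same symbols differed by -0.49 to -0.43 between the day 4 and day 0 means (median -0.45, 24 of 24 below 0). The other 17 differed by -2.08 to 0.34, with a median of -0.49 and 15 below 0. These differences were not tested. Of the 3 members with a second, differing probe set, Snora21 was at -1.02 and -1.22, Snora3 at -0.53 and -0.50 and Snord58b at -0.37 and -0.35 on its probe sets.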
